A study of Mus musculus with 10 samples.

Results

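The genes described here are the cell cycle and DNA replication genes measured when neural crest progenitors (NCPs) of the fetal mouse pelvis were profiled beside total embryo. They were taken by gene symbol alone: A-, B-, D- and E-type cyclins (*Ccna*, *Ccnb*, *Ccnd*, *Ccne*), all cyclin-dependent kinases carrying a number (*Cdk*), the *Mcm* genes, the origin recognition complex (*Orc*), centromere proteins (*Cenp* with 1 letter), Aurora kinases (*Aurk*), *Bub1* and *Bub1b*, the Polo-like kinases *Plk1* to *Plk4*, and E2F factors (*E2f*). Each gene was read from the probe set annotated to it alone, and where there were several, from the one with the highest mean over all 10 arrays. This gave 80 genes of 19937. By role they fell into 15 replication genes, 17 genes of G1 and S phase (G1/S) control, 29 mitosis genes and 19 others. *Ccnb1* was not analysed here.

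The study profiled RNA on Affymetrix mouse Gene 1.0 ST arrays, to find genes active as pelvic innervation forms. NCPs were cells marked by *Sox10*-H2BVenus (the line named C3Fe.Tg(Sox10-HIST2H2BE/Venus)ASout), in which *Sox10* regulatory sequence drives a fluorescent histone. They were dissociated from the lower urogenital tract at embryonic day 13 and sorted by fluorescence straight into lysis reagent, and the methods describe pooling fetuses for each sample. The 3 NCP arrays were set against 7 arrays of total embryo, whose labels give neither age, strain nor transgene. The 7 total embryo arrays carried only 2 RNA codes in their titles, on 3 and 4 arrays, and nothing in the labels says that they came from separate embryos, so the p-values may rest in part on technical spread. Only 1 total embryo array shared the title date of the NCP arrays. According to the methods, young neurons keep H2BVenus fluorescence for a time, and a sorted fraction can hold some of them.

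A dividing cell licenses its origins in G1, when the origin recognition complex loads the MCM helicase, and then fires them in S phase under cyclin E and cyclin A kinases. D-type cyclins with Cdk4 and Cdk6 relieve the block that the retinoblastoma protein places on E2F factors, which switch on the replication genes. Later, cyclin B with Cdk1, the Aurora and Polo kinases, the spindle checkpoint and the kinetochore built on the centromere carry the cell through mitosis, and many genes of this late wave hold CHR and CCAAT elements in their promoters. Neural crest progenitors are known to divide while some of their daughters leave the cycle to become neurons.

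The arrays of both groups differed in their whole spread of values. The SD over all probe sets was 1.07, 0.97 and 1.13 on NCP arrays 1, 2 and 3, and 1.78 to 1.91 on the total embryo arrays. The median of 10 housekeeping genes minus that of 1178 olfactory and vomeronasal receptor genes, which most tissues do not use, was 2.27, 0.75 and 3.38 on the NCP arrays and 6.27 to 6.66 on total embryo, a difference on the log2 scale. By limma all 10 housekeeping genes were lower in NCPs. Of 10 neural crest markers, *Sox10*, *Foxd3* and *Cdh19* were higher in NCPs while *Fabp7*, *Ednrb*, *Erbb3* and *Tfap2a* were lower. Markers of tissues that the embryo holds were mostly lower in NCPs, with 11 of 11 liver, 12 of 12 striated muscle, 11 of 12 smooth muscle and mesenchyme, 6 of 8 endothelium and 7 of 8 immune genes, and no gene of these lists was higher (none at an unadjusted p under 0.05 in limma). Erythroid genes gave 3 higher and 3 lower of 8, and neuron genes 5 and 5 of 12. Over all probe sets 39.6% were higher and 27.5% lower. Averaged over each list, liver genes read 6.20 to 6.30 on the NCP arrays and 10.97 to 11.48 on total embryo, and striated muscle genes 6.38 to 6.59 and 10.37 to 10.69. The part of these shifts in the results that follow was not tested.

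Cell cycle genes read lower in NCPs more often than higher. By limma, with p adjusted by Benjamini-Hochberg across the 28192 probe sets that were tested, 38 of the 80 genes were lower in NCPs (47.5%) and 8 higher (10%), with 34 not past an adjusted p of 0.05. Of all probe sets tested, 27.5% were lower and 39.6% higher, and with 1 probe set for each gene 31% and 34.8%. The median log2 fold change, NCP minus total embryo, was -0.38 over the 80 genes and 0.23 over all probe sets. In 23 genes no NCP array reached as high as the lowest embryo array (28.75%, against 21.5% of all probe sets), and in 4 every NCP array exceeded the highest (5%, against 31.8%). In RNA from many cells at once, fewer cycling cells and less of a transcript in each cell cannot be told apart. Nor can either be told apart in these counts from the narrower spread of the NCP arrays.

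How far a gene differed followed its level in the embryo. Across the 80 genes, the log2 fold change and the mean total embryo value had a Pearson r of -0.84, and across all probe sets -0.87. Both quantities share the total embryo arrays, and genes are not independent replicates, so this is a description. In 10 equal groups of probe sets by total embryo level, the median log2 fold change ran from 2.08 in the dimmest to -2.16 in the brightest group. The 7730 probe sets between the quartiles of the 80 genes' own embryo levels (6.11 to 7.42) had a median of -0.32, with 35.4% lower and 8.53% higher, beside the 47.5% and 10% of the cell cycle genes. Named below as probe sets at the members' levels, they leave out the range of the brighter and dimmer members. Every NCP array lay below every embryo array in 22.8% of these probe sets, and above in 5.47%. For the cell cycle genes these shares were 28.75% and 5%. Counting from the dimmest, groups 9 and 10 held 12 and 7 of the 80 genes, with medians over all probe sets of -1.38 and -2.16. The share of the trend in any single call was not tested.

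**Figure D1:**
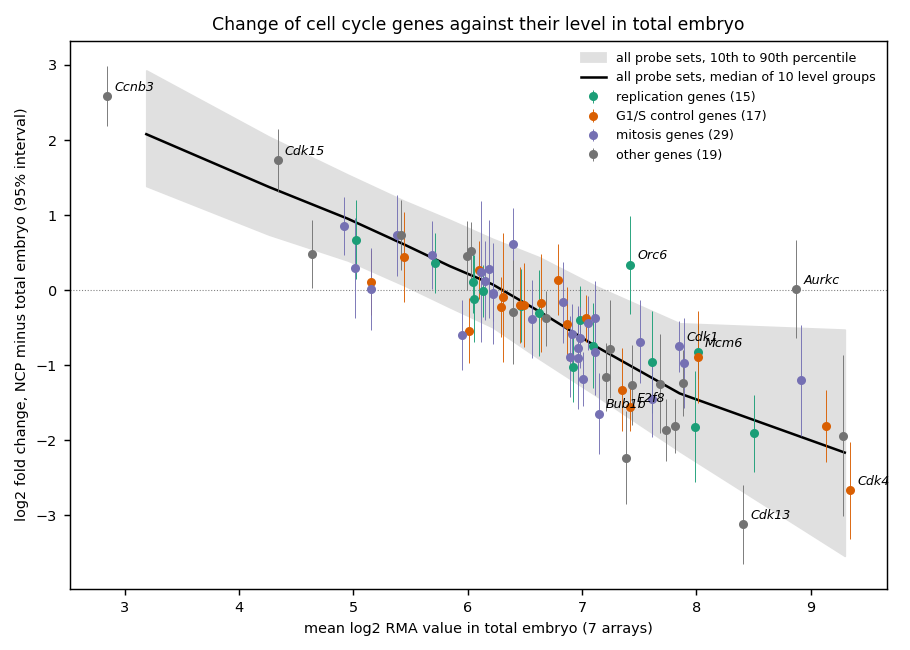
Log2 fold change of the 80 cell cycle genes (NCP minus total embryo, bars are 95% intervals from limma) against the mean log2 value on the 7 total embryo arrays, with the median (line) and the 10th to 90th percentile (band) of all probe sets in 10 level groups. Most genes follow the line, which runs from 2.08 to -2.16, while *Orc6* and *Aurkc* lie above it and *Cdk13* and *Bub1b* below.

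A second reading therefore took out the trend. On each array a lowess curve (span 0.3) of the array's difference from the total embryo mean was subtracted along that mean, and the same limma fit was run again. After this level adjustment, higher and lower mean above and below the trend of probe sets at the same embryo level, not the NCP level. By that reading 5 of the 80 genes were higher (6.25%) and 10 lower (12.5%). Of all probe sets 10.3% were higher and 8.29% lower (10.2% and 7.57% of those at the members' embryo levels). The median of the 80 genes moved from -0.38 to -0.06. The 5 were *Mcm6*, *Orc6*, *Cdk1*, *Cenpt* and *Aurkc*. Of these, *Mcm6* and *Cdk1* had every NCP array below every embryo array as deposited. The 10 were *Bub1b*, *Cenpe*, *Cenpj*, *E2f5*, *E2f8*, *Cdk3*, *Ccna1*, *Cdk10*, *Cdk12* and *Cdk13*. Lower marker calls then numbered 10 of 11 liver, 9 of 12 striated muscle and 6 of 12 smooth muscle and mesenchyme genes. Among endothelium genes 0 of 8 were lower (3 at an unadjusted p under 0.05), and among immune genes 1 of 8. Smooth muscle and mesenchyme genes gave 1 higher. Erythroid genes gave 1 higher and 1 lower, neuron genes 4 and 0 (1 lower unadjusted), and neural crest markers 2 and 2. In what follows the value as deposited is given first and the level-adjusted one beside it, and ± is the standard error of the limma fit. The count of each role stands beside shares of 27.5% lower and 39.6% higher over all probe sets as deposited. At the members' levels these were 35.4% and 8.53%.

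Against an olfactory and vomeronasal receptor background (the 95th percentile of those genes, 6.52 in NCPs and 5.38 in total embryo), 22 of the 80 genes stood above in NCPs and 72 in total embryo. The 22 were *Mcm5*, *Mcm6*, *Orc2*, *Orc3*, *Orc6*, *Ccnd1*, *Ccnd2*, *Ccnd3*, *Cdk4*, *E2f7*, *Ccna2*, *Ccnb2*, *Cdk1*, *Plk4*, *Cenpa*, *Cenpb*, *Cenps*, *Cenpt*, *Aurkc*, *Cdk8*, *Cdk16* and *Cdk18*. Their share, 27.5%, was near the 27.1% of all probe sets, while in total embryo the 72 genes were 90% of the members beside 66.6% of all probe sets. Probe sets at the members' embryo levels, all of them above the background in total embryo, stood above it in NCPs in 35.6%. For the other genes a low NCP value sits within the range of genes that are not thought to be used there. In 8 genes (*Orc1*, *Cdk3*, *Cenpi*, *Cenpl*, *Cenpu*, *Ccna1*, *Ccnb3* and *Cdk15*) both group means lay under it, among them 4 of the 8 called higher (*Orc1*, *Cenpi*, *Ccnb3* and *Cdk15*), so the sizes given for these compare values not above the background. Of the 3 neural crest markers called higher, 1 also had both group means under the background. The median SD of the 80 genes was 0.54 over the NCP arrays and 0.23 over total embryo.

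The MCM helicase, the ring of *Mcm2* to *Mcm7* that unwinds DNA at the fork, had 3 of 6 subunits lower in NCPs, none higher (also none at an unadjusted p under 0.05), and a median log2 fold change of -0.57. The lower calls were 50%, beside 27.5% of all probe sets and 35.4% of those at the members' levels. *Mcm2* read 6.27, 5.57 and 5.88 on NCP arrays 1, 2 and 3, and 6.43 to 7.24 (median 7.04) on total embryo. *Mcm6* read 7.13, 7.01 and 7.42 against 7.73 to 8.27 (median 8.01). For both subunits the NCP arrays stayed under the whole embryo range. The log2 fold change was -1.02 ± 0.22 for *Mcm2* (adjusted p = 0.0011) and -0.82 ± 0.17 for *Mcm6* (adjusted p = 0.000852). The 2 subunits parted after level adjustment, since *Mcm6* then stood above the trend at 0.66 ± 0.16 (adjusted p = 0.0119) and *Mcm2* at -0.48 (adjusted p = 0.115).

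*Mcm4*, the third lower subunit, had a log2 fold change of -0.74 ± 0.26 (adjusted p = 0.0239) with overlapping groups and -0.04 after adjustment. *Mcm5* read 6.36, 6.88 and 6.51 in NCPs against 6.48 to 7.30 (median 7.07) on the embryo arrays, which gave a log2 fold change of -0.40 ± 0.21 (adjusted p = 0.105). *Mcm7* read 7.23, 6.04 and 5.70 and 6.40 to 6.74 (median 6.63). *Mcm3* read 5.57, 6.50 and 6.73 and 6.22 to 6.64 (median 6.47). For these last subunits the groups overlapped, and the NCP arrays alone spread over more than the whole range of the embryo arrays in *Mcm7* and *Mcm3*. Their log2 fold changes were -0.30 ± 0.26 and -0.21 ± 0.23, with adjusted p of 0.324 and 0.434.

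The other *Mcm* genes encode no part of that ring. *Mcm10*, which helps the loaded helicase to start, read 6.08, 6.33 and 5.97 in NCPs and 5.89 to 6.39 (median 6.16) in total embryo. *Mcm8* and *Mcm9*, partners in repair by homologous recombination, read 6.07, 6.34 and 5.82 against 5.38 to 6.05 (median 5.72), and 5.82, 6.52 and 6.11 against 5.88 to 6.50 (median 5.999). The groups overlapped in all 3 genes, and none passed the test, with log2 fold changes from -0.01 to 0.36.

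The origin recognition complex, which marks where replication can begin, had 3 of 6 subunits lower and 1 higher in NCPs. These were 50% and 16.7%, beside 27.5% and 39.6% of all probe sets and 35.4% and 8.53% at the members' levels. *Orc3* read 7.29, 6.43 and 6.07 on the NCP arrays and 8.24 to 8.83 (median 8.54) on total embryo, and *Orc4* 6.97, 6.10 and 5.44 and 7.07 to 8.72 (median 7.99). In both genes all NCP arrays lay below, with log2 fold changes of -1.91 ± 0.24 (adjusted p = 1.47e-05) and -1.82 ± 0.34 (adjusted p = 0.000429). After level adjustment they stood at -0.08 and -0.36, not past the test. *Orc2* was lower as well, at -0.96 ± 0.31 (adjusted p = 0.0157), and overlapped. *Orc1*, the subunit whose supply changes through the cycle, was higher at 4.98, 6.32 and 5.79 against 4.65 to 5.21 (median 5.08), a log2 fold change of 0.67 ± 0.24 (adjusted p = 0.0261). Both group means of *Orc1*, the one higher replication gene, were under the receptor background. NCP array 1 lay within the embryo range for *Orc1*, and after level adjustment the value was -0.22 (adjusted p = 0.539).

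*Orc6*, the subunit that also serves in cytokinesis, went the other way from *Orc3* and *Orc4*. It read 7.98, 6.83 and 8.46 in NCPs and 6.92 to 7.78 (median 7.44) in total embryo, so that NCP arrays 1 and 3 lay above all embryo arrays and NCP array 2 below them. The deposited values gave 0.34 ± 0.30 (adjusted p = 0.335). After level adjustment *Orc6* was higher at 1.32 ± 0.29 (adjusted p = 0.00728). *Orc5* had a log2 fold change of -0.11 ± 0.27 (adjusted p = 0.719).

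*Mcm6* and *Orc6* were the 2 replication genes that passed the test after level adjustment, and the bases before their start sites are shown for that reason. They come from RefSeq windows on mouse build GRCm38.p6, on the minus strand for *Mcm6* (chr1:128359706-128359905) and the plus strand for *Orc6* (chr8:85299432-85299631), read 5′ to 3′ and ending 1 base before the annotated start. Capitals mark an E2F core (TTGGCGC or TTCCCGC), a CHR element (TTTGAA or TTCGAA) or a CCAAT box, on either strand, so that ATTGG is CCAAT read on the other strand.
Mcm6: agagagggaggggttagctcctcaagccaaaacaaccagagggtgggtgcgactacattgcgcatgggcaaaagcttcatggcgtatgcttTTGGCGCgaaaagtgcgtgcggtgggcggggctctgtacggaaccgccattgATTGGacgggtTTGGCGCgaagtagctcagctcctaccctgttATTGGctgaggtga
Orc6: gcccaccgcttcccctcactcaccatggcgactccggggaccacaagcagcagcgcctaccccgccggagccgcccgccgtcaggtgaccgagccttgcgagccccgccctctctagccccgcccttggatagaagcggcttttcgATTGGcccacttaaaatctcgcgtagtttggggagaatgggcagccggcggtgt
The *Mcm6* stretch holds the E2F core TTGGCGC at -109 and at -46 and a CCAAT box at -57 and at -14, counted back from -1 at the last base before the start. The *Orc6* stretch holds a CCAAT box at -54, and these letters of an E2F core or CHR element do not occur in its 300-base window. A match of letters is a description and not a bound site.

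Of the D-type cyclins, which couple growth signals to the cycle, all 3 were lower in NCPs. *Ccnd2* read 7.005, 7.02 and 7.94 against 8.82 to 9.36 (median 9.18), and *Ccnd1* 7.96, 6.80 and 6.60 against 7.36 to 8.32 (median 8.07). No *Ccnd2* array of the NCPs reached the embryo range, while for *Ccnd1* NCP array 1 fell among the embryo arrays. The log2 fold changes were -1.81 ± 0.22 for *Ccnd2* (adjusted p = 1.35e-05), -0.89 ± 0.28 for *Ccnd1* (adjusted p = 0.0137) and -0.38 ± 0.15 for *Ccnd3* (adjusted p = 0.0356), and all 3 were above 0 but not past the test after level adjustment (0.34, 0.59 and 0.26). Without NCP array 2, *Ccnd1* stood at -0.73 (adjusted p = 0.0629) and *Ccnd3* at -0.31 (adjusted p = 0.0822).

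The E-type cyclins, which drive entry into S phase, spread widely over the NCP arrays. *Ccne1* read 6.58, 5.50 and 6.80 in NCPs and 6.13 to 6.72 (median 6.59) in total embryo. *Ccne2* read 6.23, 5.11 and 7.30 and 5.83 to 7.01 (median 6.14). In both genes NCP array 2 lay below all embryo arrays and NCP array 3 above them. Neither passed the test, with log2 fold changes of -0.20 (95% interval -0.76 to 0.36) and -0.10 (-0.95 to 0.76).

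*Cdk4*, the main partner of the D-type cyclins, showed the lowest log2 fold change of the G1/S genes. It read 6.28, 7.20 and 6.55 on the NCP arrays against 8.46 to 9.88 (median 9.43) on total embryo, a log2 fold change of -2.67 ± 0.30 (adjusted p = 6.71e-06), with no overlap. *Cdk6*, the kinase that shares those partners, read 6.37, 6.33 and 5.37 against 6.86 to 7.89 (median 7.29), again with no overlap, and was lower at -1.32 ± 0.26 (adjusted p = 0.000552). After level adjustment they stood at -0.45 and -0.40, not past the test. *Cdk2*, the partner of E-type cyclins, read 6.30, 6.51 and 5.99 against 5.89 to 7.01 (median 6.57), within the embryo range on every NCP array, at -0.20 ± 0.24 (adjusted p = 0.474). *Cdk3*, linked to exit from quiescence, read 5.72, 4.71 and 5.35 against 5.02 to 5.34 (median 5.13), overlapping, and was lower only after level adjustment (-0.71 ± 0.20, adjusted p = 0.0307). Both of its group means were under the receptor background.

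Of the 8 E2F factors 2 were lower and none higher in NCPs (none at an unadjusted p under 0.05). The lower share, 25%, was near the 27.5% of all probe sets, of which 39.6% were higher. *E2f8*, an atypical repressor that damps the E2F wave, read 5.94, 5.87 and 5.76 in NCPs and 7.25 to 7.54 (median 7.41) in total embryo. The 3 NCP values lay close together and below all embryo arrays. Its log2 fold change was -1.56 ± 0.14 (adjusted p = 1.31e-06) and it stayed lower after level adjustment at -0.58 ± 0.14 (adjusted p = 0.0147). *E2f5*, a repressor of quiescent cells, read 5.73, 5.62 and 5.07 and 5.72 to 6.32 (median 5.99), and was lower by both readings at -0.54 ± 0.20 (adjusted p = 0.0298) and -0.76 ± 0.20 (adjusted p = 0.0192), with NCP array 1 just inside the embryo range.

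The activators did not pass the test. *E2f1* read 5.99, 6.45 and 6.65 against 5.83 to 6.33 (median 6.11), and *E2f2* 5.38, 6.80 and 5.48 against 5.04 to 5.76 (median 5.49). NCP arrays 2 and 3 of *E2f1* and NCP array 2 of *E2f2* lay above all embryo arrays, and the log2 fold changes were 0.27 ± 0.18 and 0.44 ± 0.28 (adjusted p = 0.194 and 0.175). *E2f3* stood at -0.17, and a second *E2f3* probe set was higher at 0.55 (adjusted p = 0.00618), so they differed as deposited. After level adjustment these probe sets stood at 0.11 and 0.13, not past the test. *E2f7*, the other atypical repressor, stood at 0.14 and 0.56 after adjustment (adjusted p = 0.0946), and *E2f4* and *E2f6* at -0.23 and -0.45.

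**Figure D2:**
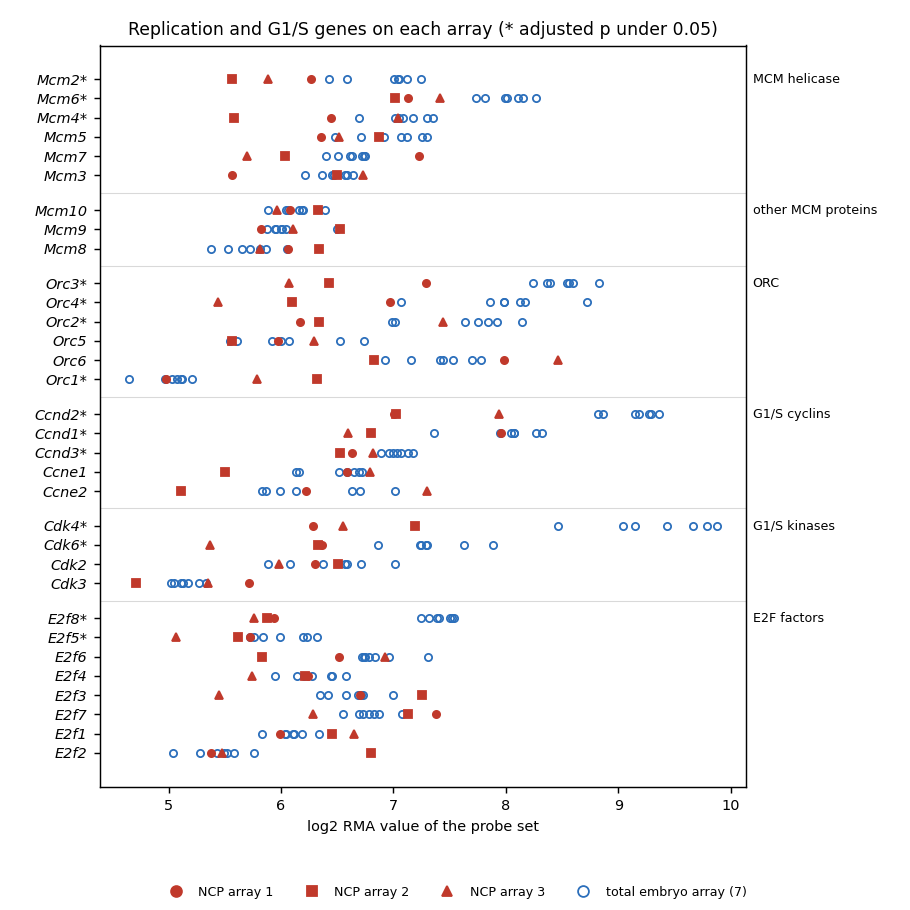
Log2 value of the probe set of each replication and G1/S control gene on the 3 NCP arrays (filled, 1 symbol for each array) and the 7 total embryo arrays (open circles), ordered within roles by log2 fold change, with a star on genes past an adjusted p of 0.05 in limma. The NCP arrays lie below all embryo arrays for *Mcm2*, *Mcm6*, *Orc3*, *Orc4*, *Ccnd2*, *Ccnd3*, *Cdk4*, *Cdk6* and *E2f8*.

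*Cdk1* and the cyclins *Ccnb2* and *Ccna2* were lower in NCPs as deposited and above 0 after level adjustment. *Cdk1*, the kinase of mitotic entry, read 6.94, 6.95 and 7.42 on the NCP arrays and 7.70 to 7.98 (median 7.86) on total embryo, with no overlap. *Ccnb2*, a mitotic cyclin, read 6.87, 7.75 and 8.52 and 8.25 to 9.70 (median 8.90). *Ccna2*, the cyclin of S phase and G2, read 6.78, 6.20 and 7.78 and 7.61 to 8.20 (median 7.89). For both cyclins NCP array 3 fell inside the embryo range and the other arrays below it. The log2 fold changes were -0.75 ± 0.16 for *Cdk1* (adjusted p = 0.000999), -1.20 ± 0.34 for *Ccnb2* (adjusted p = 0.00742) and -0.97 ± 0.28 for *Ccna2* (adjusted p = 0.00752). After level adjustment *Cdk1* stood above the trend at 0.60 ± 0.14 (adjusted p = 0.0123), and *Ccnb2* and *Ccna2* stood at 0.85 (adjusted p = 0.099) and 0.41 (adjusted p = 0.278). All 3 stood above the receptor background in NCPs.

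Mitotic kinases and checkpoint genes gave 5 lower and none higher of 6 (none at an unadjusted p under 0.05). The lower share was 83.3%, beside 27.5% of all probe sets and 35.4% of those at the members' levels. *Bub1b*, the spindle checkpoint protein BubR1, read 4.93, 5.37 and 6.21 against 6.77 to 7.52 (median 7.15), with no overlap, and was lower by both readings, at -1.64 ± 0.25 (adjusted p = 8.26e-05) and -0.90 ± 0.24 (adjusted p = 0.0207). *Bub1*, its partner kinase, read 6.39, 5.63 and 5.998 against 6.34 to 7.60 (median 6.82), and NCP array 1 overlapped the embryo arrays. *Aurkb*, the kinase of the chromosomal passenger complex, read 6.29, 5.77 and 6.52 against 6.41 to 7.59 (median 6.96), with NCP array 3 inside the embryo range. *Aurka*, which matures the spindle poles, read 6.08, 6.22 and 6.73 against 6.77 to 7.39 (median 6.95), every NCP array below. These 3 had log2 fold changes of -0.89 ± 0.25, -0.77 ± 0.24 and -0.63 ± 0.19 (adjusted p = 0.00714, 0.0115 and 0.00945), and -0.38, -0.19 and -0.04 after level adjustment, not past the test. *Plk4*, which starts centriole duplication, was lower at -0.69 ± 0.25 (adjusted p = 0.0297). *Plk1*, the Polo kinase of mitosis itself, read 6.17, 6.29 and 6.06 within the embryo range of 5.84 to 6.48 (median 6.32), at -0.05 ± 0.17 (adjusted p = 0.799).

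*Cdk1* and *Ccnb2* stood above the trend of genes at their level and *Bub1b* below it (*Ccnb2* not past the test), so their upstream bases are set side by side, from the RefSeq windows of GRCm38.p6 and with the same capitals. *Cdk1* (chr10:69352913-69353112) and *Ccnb2* (chr9:70421555-70421754) lie on the minus strand and *Bub1b* (chr2:118598011-118598201) on the plus strand, and the *Bub1b* stretch stops at -10, before the outermost annotated start of the gene.
Cdk1: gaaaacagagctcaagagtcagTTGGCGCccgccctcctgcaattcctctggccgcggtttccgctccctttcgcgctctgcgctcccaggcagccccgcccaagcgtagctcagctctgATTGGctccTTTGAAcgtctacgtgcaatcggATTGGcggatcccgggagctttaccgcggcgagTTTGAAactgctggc
Ccnb2: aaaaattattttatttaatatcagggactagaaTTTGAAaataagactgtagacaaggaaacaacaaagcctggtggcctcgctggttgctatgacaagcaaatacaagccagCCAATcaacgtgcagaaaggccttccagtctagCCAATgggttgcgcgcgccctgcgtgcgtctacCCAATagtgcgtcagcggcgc
Bub1b: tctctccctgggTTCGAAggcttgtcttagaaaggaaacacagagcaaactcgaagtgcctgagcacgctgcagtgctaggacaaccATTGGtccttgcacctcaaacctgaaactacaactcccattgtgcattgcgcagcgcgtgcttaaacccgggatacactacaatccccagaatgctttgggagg
All 3 hold CHR letters and a CCAAT box. In *Cdk1* the letters TTTGAA lie at -71 and -15, an E2F core at -178, and CCAAT boxes at -80 and -48. *Ccnb2* has TTTGAA at -167 and CCAAT boxes at -87, -54 and -21. *Bub1b* has TTCGAA at -188 and a CCAAT box at -113. The letters TTTGAA also lie past the printed bases, at 5 in *Ccnb2* and at 41 in *Bub1b*, both after the start. Before the printed bases, *Cdk1* has a further CCAAT box at -208. The genes thus share these letters while their level-adjusted values differ in sign.

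The 20 centromere and kinetochore genes were mixed, with 7 lower (35%), 3 higher (15%) and a median log2 fold change of -0.10. Of probe sets at the members' levels 35.4% were lower and 8.53% higher, and of all probe sets 27.5% and 39.6%. *Cenpk*, of the inner kinetochore, read 5.99, 6.25 and 6.24 on the NCP arrays and 7.15 to 8.16 (median 7.52) on total embryo, and *Cenpe*, the kinesin that brings chromosomes to the plate, 5.88, 5.85 and 5.74 and 6.75 to 7.28 (median 6.99). No NCP array reached the embryo range in either gene. They were lower at -1.45 ± 0.23 (adjusted p = 0.000134) and -1.18 ± 0.17 (adjusted p = 4.32e-05), and *Cenpe* remained so after level adjustment, at -0.57 ± 0.17 (adjusted p = 0.0358). *Cenpa*, the histone variant that marks the centromere, read 6.93, 6.58 and 6.30 against 6.95 to 7.20 (median 6.99), just below all embryo arrays, at -0.44 ± 0.17 (adjusted p = 0.0309) and 0.21 after adjustment. *Cenph*, *Cenpf*, *Cenpo* and *Cenpj* were the other lower genes, from -0.90 to -0.59, with groups that overlapped. *Cenpj*, a builder of centrioles in spite of its name, was also lower after adjustment (-0.87 ± 0.21, adjusted p = 0.0131).

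Inner kinetochore genes also made up the higher calls. *Cenpi* read 5.67, 5.89 and 5.77 against 4.51 to 5.21 (median 4.87), every NCP array above, and *Cenpq* 5.57, 6.73 and 6.02 against 4.82 to 5.78 (median 5.42), with NCP array 1 inside the embryo range. They were higher at 0.85 ± 0.18 (adjusted p = 0.00106) and 0.73 ± 0.25 (adjusted p = 0.0202). *Cenpi* was under the receptor background in both groups and *Cenpq* in NCPs. After level adjustment they stood at -0.11 and 0.07, not past the test. *Cenpt*, which links the centromere to the outer kinetochore, was the one higher by both readings, at 0.62 ± 0.22 (adjusted p = 0.0259) and 0.69 ± 0.22 (adjusted p = 0.0462), with NCP array 1 the highest of all. Without that array *Cenpt* stood at 0.30 (adjusted p = 0.16) and, after level adjustment, at 0.38 (adjusted p = 0.15). The remaining 10 (*Cenpb*, *Cenpl*, *Cenpm*, *Cenpn*, *Cenpp*, *Cenps*, *Cenpu*, *Cenpv*, *Cenpw* and *Cenpx*) had log2 fold changes from -0.38 to 0.47, and none passed the test. In *Cenpw* the NCP arrays read 7.96, 5.22 and 5.89, a wider spread than the embryo range of 5.55 to 6.35 (median 6.20).

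**Figure D3:**
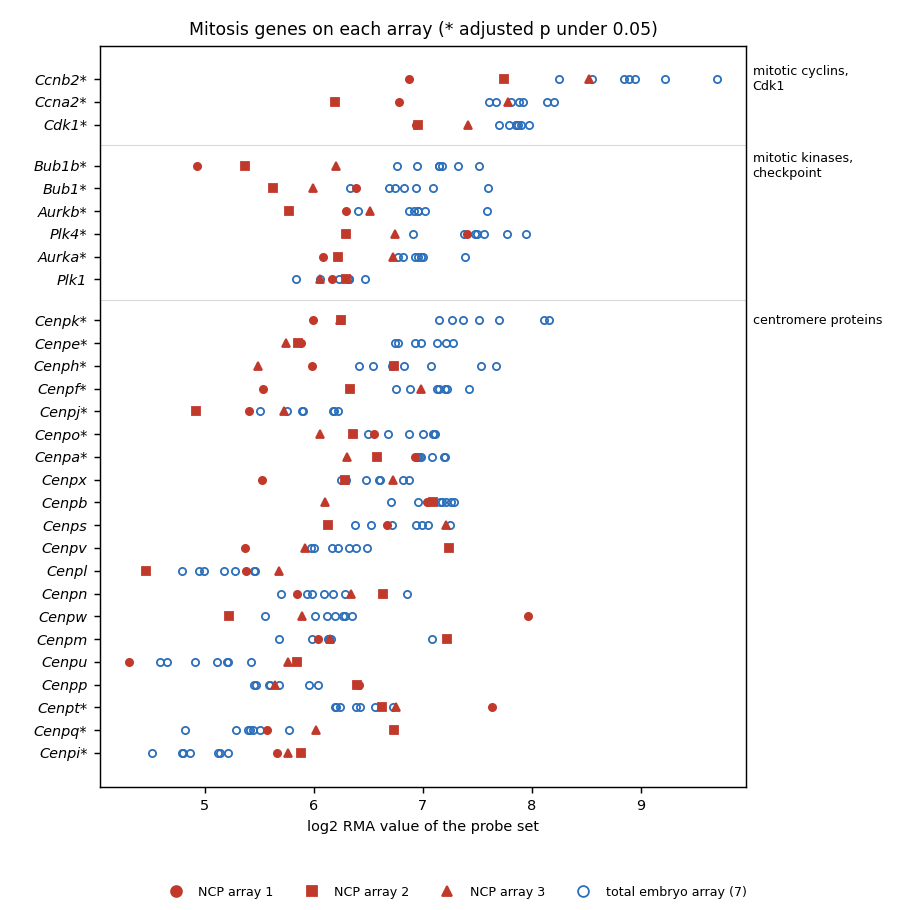
Log2 value of the probe set of each mitosis gene on the 3 NCP arrays (filled, 1 symbol for each array) and the 7 total embryo arrays (open circles), ordered within roles by log2 fold change, with a star on genes past an adjusted p of 0.05 in limma. All NCP arrays lie below the embryo arrays for *Cdk1*, *Bub1b*, *Aurka*, *Cenpk*, *Cenpe* and *Cenpa*, and above them for *Cenpi*.

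The symbol rule also takes in kinases of transcription, which share the *Cdk* name but do not drive the cycle directly. Of 6, 5 were lower in NCPs, none higher (none at an unadjusted p under 0.05), and the median log2 fold change was -1.55. The lower share was 83.3%, beside 27.5% of all probe sets and 35.4% of those at the members' levels. The median embryo level of these kinases, 7.70, lay above that range. *Cdk13*, which phosphorylates RNA polymerase II during elongation, read 5.47, 5.61 and 4.77 against 7.91 to 8.84 (median 8.39). Its log2 fold change of -3.12 ± 0.24 (adjusted p = 3.36e-07) was the lowest of the 80 genes, without overlap, and it stayed lower after level adjustment at -1.36 ± 0.27 (adjusted p = 0.00438). *Cdk12*, its close relative, was lower by both readings too, at -1.86 ± 0.19 and -0.61 ± 0.19 (adjusted p = 3.13e-06 and 0.0385), while a second *Cdk12* probe set stood at -0.26 and, after adjustment, -0.74. *Cdk8*, a Mediator kinase, read 6.32, 6.48 and 9.22 against 8.96 to 9.93 (median 9.21), and NCP array 3 alone reached the embryo range (-1.94 ± 0.49, adjusted p = 0.00381). *Cdk19*, the other Mediator kinase, was lower at -1.25 ± 0.31 (adjusted p = 0.00308). *Cdk7*, which activates other Cdks and serves in transcription initiation, read 5.55, 6.50 and 6.11 against 6.88 to 7.44 (median 7.18), with no overlap (-1.16 ± 0.21, adjusted p = 0.000327), and its other probe set gave -1.51. *Cdk9*, the elongation kinase of P-TEFb, read 6.37, 6.32 and 6.23 against 6.36 to 7.004 (median 6.74) and did not pass the test (-0.38 ± 0.17, adjusted p = 0.0627).

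Of the 8 remaining Cdks, 4 were lower (50%) and 2 higher (25%) in NCPs, beside 27.5% and 39.6% of all probe sets. *Cdk10* read 5.40, 5.62 and 4.44 against 6.83 to 7.83 (median 7.44), with no overlap, at -2.23 ± 0.29 (adjusted p = 2.12e-05) and -1.28 ± 0.29 after level adjustment (adjusted p = 0.00985), but its second probe set gave 0.35 (adjusted p = 0.0818). *Cdk17*, a PCTAIRE kinase, read 5.90, 5.66 and 6.98 against 7.27 to 7.62 (median 7.47), also with no overlap (-1.26 ± 0.25, adjusted p = 0.000576). *Cdk16*, of the same family, and *Cdk14* were lower at -1.24 and -0.79. *Cdk18*, the third PCTAIRE kinase, was higher, reading 6.87, 6.49 and 6.30 against 5.71 to 6.35 (median 6.06) (0.52 ± 0.18, adjusted p = 0.02). The PCTAIRE kinases thus differed in sign as deposited. After adjustment *Cdk16* stood at 0.14, *Cdk17* at -0.26 and *Cdk18* at 0.31, none past the test. *Cdk15* read 5.68, 6.56 and 5.96 against 4.13 to 4.61 (median 4.34), all NCP arrays above (1.73 ± 0.20, adjusted p = 7e-06), and 0.39 after adjustment. Both group means of *Cdk15* were under the receptor background. *Cdk5*, the Cdk of neurons, stood at -0.29 and *Cdk20* at 0.46, not past the test.

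Germ line members and the stress-induced Polo kinases completed the set. *Ccnb3*, a cyclin of meiosis, read 5.08, 5.88 and 5.35 in NCPs and 2.64 to 3.03 (median 2.86) in total embryo, at 2.59 ± 0.19 (adjusted p = 1.97e-07), and 0.23 after level adjustment, not past the test. It lay under the receptor background in both groups. *Ccna1*, the germ line A-type cyclin, read 4.55, 5.48 and 5.33 against 4.39 to 4.95 (median 4.58) (0.48 ± 0.21, adjusted p = 0.0589), and was lower after adjustment (-0.66 ± 0.20, adjusted p = 0.0389). Both group means of *Ccna1* were also under that background. *Aurkc*, the meiotic Aurora, read 9.80, 8.59 and 8.28 against 8.41 to 9.25 (median 8.84), with 0.01 ± 0.30 as deposited and 2.05 ± 0.32 after adjustment (adjusted p = 0.00105). Its 3 other probe sets gave -0.82, 0.11 and 1.37, so the gene has no single direction here. *Plk2* read 6.31, 5.99 and 5.72 against 7.67 to 8.003 (median 7.79), all NCP arrays below (-1.81 ± 0.17, adjusted p = 1.22e-06). *Plk3* read 6.14, 6.52 and 5.80 against 4.81 to 5.64 (median 5.48), all above (0.74 ± 0.21, adjusted p = 0.00862), and neither Polo gene passed the test after adjustment (-0.49 and 0.10).

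The 3 main classes were set side by side, replication, G1/S control and mitosis. Of 15 replication genes 6 were lower (40%) and 1 higher, of 17 G1/S genes 7 (41.2%) and none (none at an unadjusted p under 0.05), and of 29 mitosis genes 15 (51.7%) and 3. Of the probe sets at the members' embryo levels 35.4% were lower and 8.53% higher, and the replication and G1/S shares lay near those. That range leaves out brighter and dimmer members, so it is not matched to any class, and the excess of a share over it was not tested. Median log2 fold changes were -0.30, -0.23 and -0.44, and after level adjustment -0.07, -0.07 and -0.06. The adjusted calls were 2 higher and none lower for replication (1 lower at an unadjusted p under 0.05), none higher (1 unadjusted) and 3 lower for G1/S control, and 2 higher and 3 lower for mitosis. Higher calls were thus 13.3%, 0% and 6.9% of the classes, beside 10.3% of all probe sets. Lower calls were 0%, 17.6% and 10.3%, beside 8.29%. The median of replication genes minus that of mitosis genes was 0.14 as deposited and -0.012 after adjustment, so its sign differed between the readings.

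Averaged on each array, the replication genes read 6.42, 6.29 and 6.44 in NCPs and 6.76 to 6.96 in total embryo. The mitosis genes read 6.19, 6.25 and 6.36 against 6.60 to 6.77, and the G1/S genes 6.41, 6.29 and 6.24 against 6.78 to 6.98. Every NCP array lay below every embryo array in all 3 classes. The replication mean minus the mitosis mean, a contrast within each array, was 0.23, 0.04 and 0.08 in NCPs (0.12 ± 0.10, SD, n = 3) and 0.20 ± 0.07 in total embryo (n = 7, 0.08 to 0.29). After level adjustment it was 0.28 ± 0.10 and 0.19 ± 0.07. The groups overlapped by both readings, in opposite order. NCP minus embryo, this contrast of means was -0.08 as deposited and 0.08 after adjustment, opposite in sign to the difference of class medians.

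**Figure D4:**
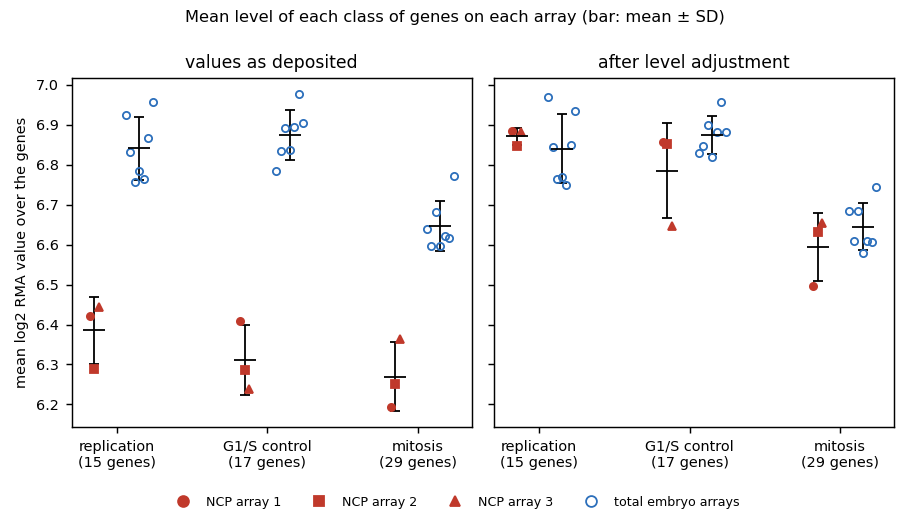
Mean log2 value of the 15 replication, 17 G1/S control and 29 mitosis genes on each array, as deposited (left) and after level adjustment (right), with the mean ± SD of each group (NCP, 3 arrays; total embryo, 7). As deposited all NCP arrays lie below all embryo arrays, and after adjustment the groups overlap in every class.

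Genes of the same pathway that the symbol rule does not hold gave shares of the same order. Of 38 other replication genes 16 were lower (42.1%) and 2 higher, beside the 35.4% and 8.53% of probe sets at the members' levels, with a median log2 fold change of -0.54. The lowest were *Gins4*, a helicase cofactor (-2.21 ± 0.22), *Pola1*, of the primase complex (-2.12 ± 0.29), and *Rrm1*, which makes deoxynucleotides (-1.83 ± 0.19). The higher genes were *Slbp*, the binding protein of histone mRNA (1.09 ± 0.38, adjusted p = 0.023), and the licensing factor *Cdt1* (0.58 ± 0.19, adjusted p = 0.017). After level adjustment this list gave 6 higher and 2 lower with a median of 0.13 (15.8% and 5.26%, beside 10.3% and 8.29% of all probe sets). *Slbp* then stood at 2.25 ± 0.36 (adjusted p = 0.00128). *Pcna*, the sliding clamp, read 6.29, 10.60 and 11.69 on the NCP arrays and 10.77 to 11.55 (median 11.06) on total embryo, with NCP array 1 far below all other arrays (named after its values were seen).

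Of 46 other mitosis genes 21 were lower (45.7%, against the same 35.4%) and none higher (none at an unadjusted p under 0.05), with a median of -0.46. *Cks2*, a Cdk subunit, *Smc4*, of condensin, and *Mad2l1*, of the checkpoint, were lowest at -2.10 ± 0.43, -1.995 ± 0.23 and -1.89 ± 0.34. The proliferation markers *Mki67* and *Top2a*, named here after their values were seen, were lower at -1.72 ± 0.17 and -1.77 ± 0.35 and stood at 0.11 and 0.40 after adjustment, not past the test. After adjustment the list of other mitosis genes gave 4 higher and 4 lower (8.7% each, beside 10.3% and 8.29% of all probe sets). Of 17 brakes on the cycle 8 were lower (47.1%, against the same 35.4%, and 47.5% of the 80 members) and 1 higher, the stress gene *Gadd45g* (0.87 ± 0.16, adjusted p = 0.000357). Both group means of *Gadd45g* were under the receptor background, and it stood at -0.09 after level adjustment (adjusted p = 0.735). *Ccng1*, *Rb1* and *Ccng2* were lowest at -2.05 ± 0.24, -1.69 ± 0.26 and -1.36 ± 0.16. After level adjustment the brakes gave 2 higher and 2 lower (11.8% each, beside 10.3% and 8.29% of all probe sets). *Cdkn1b*, the inhibitor p27 of cells leaving the cycle, read 8.19, 9.25 and 5.94 in NCPs against 6.46 to 7.83 (median 7.18), so 2 NCP arrays lay above all embryo arrays and the third below (0.65 ± 0.54, adjusted p = 0.302).

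Promoter letters were read for the 68 members with a RefSeq window of 300 bases (250 before and 50 after the start), beside the windows of 17492 protein-coding genes. The members without a window were *Aurkb*, *Ccna2*, *Ccnd1*, *Ccnd2*, *Ccne2*, *Cdk3*, *Cdk5*, *Cdk17*, *Cdk19*, *E2f4*, *E2f5* and *Mcm4*. An E2F core occurred in 42.9% of replication, 45.5% of G1/S and 33.3% of mitosis genes, in none of the 16 other members, and in 8.79% of all windows. A CHR element occurred in 44.4% of mitosis genes, 14.3% of replication genes and 18.2% of all windows, and in 71.1% of the mitosis genes outside the rule. A CCAAT box occurred in 60.3% of the members and 39.0% of all windows. Of the 17 member windows with a CHR element all 17 also held a CCAAT box. Members lower in NCPs held an E2F core in 23.3% and a CHR element in 33.3% of 30 windows, and the other members in 34.2% and 18.4% of 38, as a description with no test.

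The calls above weighed all embryo arrays alike. With the arrays of each RNA code averaged, 15 of the 80 genes were lower and 2 higher (14.8% and 20.4% of all probe sets). With the code as a random block these were 21 and 3 (20.2% and 28.4%), and against the 3 embryo arrays of the same label series 22 and 4 (19.5% and 26.8%). Against the single embryo array of the same title date, where the lone array is taken to vary like the others, 1 was lower (*Cdk13*) and none higher (2.45% and 1.29% of all probe sets, and 13 and 2 of the genes at an unadjusted p under 0.05). The date of the NCP arrays and the group can thus be told apart only through that 1 array. Without NCP array 2, the one nearest the receptor background, 32 were lower and 7 higher (26.3% and 39.4%), and after level adjustment 14 and 5. In that adjusted fit 3459 of all 28192 probe sets were lower and 3856 higher.

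Single NCP arrays decided several calls. Without NCP array 1, adjusted p rose above 0.05 for *Ccnd3*, *Cenph*, *Cenpf*, *Cenpt*, *Ccnb2*, *Cdk14*, *Cdk18* and *Orc2* (log2 fold changes in that order -0.36, -0.86, -0.46, 0.30, -0.78, -0.34, 0.36 and -0.72). Without NCP array 2 the same held for *Ccnd1*, *Ccnd3*, *Cenpj*, *Cenpa*, *Cenpq*, *Aurkb*, *Plk4*, *Mcm4*, *Orc2* and *Orc1* (in that order -0.73, -0.31, -0.38, -0.43, 0.42, -0.55, -0.43, -0.35, -0.81 and 0.36). Without NCP array 3 it held for *E2f5*, *Ccnd1*, *Cenph*, *Cenpo*, *Cenpa*, *Plk4* and *Orc1* (in that order -0.34, -0.63, -0.61, -0.46, -0.29, -0.65 and 0.63). Other genes passed the test once 1 NCP array was left out. Without NCP array 1 these were *E2f1*, *Cenpu*, *Ccna1* and *Mcm7* (in that order 0.46, 0.79, 0.77 and -0.76). Without NCP array 2 they were *Cenpv*, *Mcm5* and *Orc6* (-0.58, -0.54 and 0.80), and without NCP array 3 *E2f6*, *E2f7*, *Cenpx*, *Cenpp*, *Cdk20* and *Mcm8* (-0.70, 0.46, -0.66, 0.72, 0.78 and 0.49). *Mcm5* also passed without total embryo array 1 (-0.48), and *Ccna1* (0.53) and *Cdk9* (-0.43) without array 7. Of the level-adjusted calls, *Bub1b* stood at -0.60 (adjusted p = 0.0685), *Cdk12* at -0.41 (0.113) and *Ccna1* at -0.38 (0.115) without NCP array 1. Likewise *Cdk3* stood at -0.40 (adjusted p = 0.0684) without NCP array 2, and *Cenpe* at -0.50 (0.0706) and *E2f5* at -0.56 (0.0582) without NCP array 3. *Mcm6*, *Orc6*, *Cdk1*, *Aurkc*, *E2f8*, *Cenpj*, *Cdk10* and *Cdk13* kept their level-adjusted calls whichever NCP array was left out. Level-adjusted calls were gained by *Ccnb2*, *Cdk15*, *Plk2* and *Mcm2* without NCP array 1 (1.30, 0.58, -0.62 and -0.64) and by *E2f2*, *Cdk4*, *Cenpv*, *Plk2* and *Cdk7* without NCP array 2 (-0.62, -0.94, -0.66, -0.55 and -0.63). Without NCP array 3 they were gained by *E2f7*, *Ccnd1*, *Cenpb*, *Cenpl*, *Cdk17* and *Cdk20* (0.90, 0.91, 0.69, -1.07, -0.62 and 0.55). *Cenpa* and *E2f5* also lost their calls without single embryo arrays, *Cenpa* at -0.42, -0.42 and -0.44 without total embryo array 2, 5 or 6 and *E2f5* at -0.51, -0.49 and -0.50 without 5, 6 or 7.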

How the data were processed

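The deposited values are log2 intensities of 34760 probe sets, which the authors obtained with Affymetrix Expression Console 1.1, using its RMA method (background correction, quantile normalization and median polish). The methods describe amplification from small RNA inputs. Which arrays were normalized together is not given in the sources used here. Values were used as deposited. Of the probe sets, 6568 controls were dropped and the other 28192 entered limma 3.58.1 in R 4.3.3, NCP (3 arrays) against total embryo (7), with Benjamini-Hochberg adjustment over all of them and a threshold of 0.05. The number of arrays limits the precision. Gene names came from the platform annotation, and promoters and names from RefSeq GRCm38.p6, in which all 80 symbols were found.

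The members and lists were chosen with earlier results of these data known. Per-array values are given for a fixed set of well-known members and, in each role, for the 2 lowest and 2 highest log2 fold changes, and other lists are named by up to 3 at either end. Alternatives covered scaling, filters, probe set choice, array weights, RNA code, label series, title date and leaving out each array. The fits were tested on simulated data in which all arrays had the means and SDs of total embryo. The simulation lacked the narrower range and larger SD of the NCP arrays, so it cannot show how the fits behave on them. Figures were drawn with Python 3.11.15.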

Additional observations from a re-analysis of the deposited data

Results flagged for a closer look

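Among the 7 total embryo arrays, 5 of the 50 genes given with values on every array had 1 array far from the others, by the gap to its neighbour as a share of the group's range. Chance flags about 1 in 20 groups. The share was 0.731 for *Mcm9* (total embryo array 7 highest at 6.501, next 6.05), 0.628 for *Aurka* (array 6 highest at 7.39, next 7.001) and 0.614 for *Ccnd1* (array 1 lowest at 7.36, next 7.95). It was 0.606 for *Plk3* (array 2 lowest at 4.81, next 5.32) and 0.569 for *Orc1* (array 6 lowest at 4.65, next 4.97). Total embryo array 1, the low one for *Ccnd1*, is the array that shares the title date of the NCP arrays. No array of a group of 3 was looked at in this way.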

How the results depend on the processing

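No paired analysis was possible because the labels give no replicate numbers. Settings that align arrays along the level trend turned the sign of many genes, and centring on the receptor genes moved nearly all of them down. The lowest probe set per gene turned *Cdk10*, while the trend and robust prior changed no call of the 50 genes named with values. The genes lower in NCPs, 38 as reported, numbered 1 against the embryo array of the same title date, 9 after level adjustment without NCP array 1, 10 after level adjustment and after level adjustment without NCP array 3, 13 with cyclic loess. They further numbered 14 after level adjustment without NCP array 2, 15 with arrays averaged per RNA code, 19 with quantile normalization again, 20 with a log2 fold change of at least 1 asked as well. They further numbered 21 with RNA code as a random block and with array weights, 22 against embryo arrays of the same label series, 25 at an adjusted p under 0.01, 78 with arrays centred on the receptor genes. The genes higher, 8 as reported, numbered 0 against the embryo array of the same title date, 1 with arrays centred on the receptor genes, 2 among probe sets above the receptor 95th percentile, with array weights, with arrays averaged per RNA code, with a log2 fold change of at least 1 asked as well and among probe sets above the median of all by mean, 3 with RNA code as a random block. The count was also 4 at an adjusted p under 0.01, with label series as a block and against embryo arrays of the same label series, 5 after level adjustment, after level adjustment without NCP array 2, with arrays centred on their medians and against embryo arrays of the other label series. Lower replication genes, 6 as reported, numbered 0 after level adjustment, after level adjustment without NCP array 2, after level adjustment without NCP array 3 and against the embryo array of the same title date, 1 with cyclic loess and after level adjustment without NCP array 1, 2 with arrays averaged per RNA code, 3 with a log2 fold change of at least 1 asked as well and with quantile normalization again. The count was also 15 with arrays centred on the receptor genes. Lower mitosis genes, 15 as reported, numbered 0 against the embryo array of the same title date, 2 after level adjustment without NCP array 1, 3 with arrays averaged per RNA code, after level adjustment and after level adjustment without NCP array 3, 4 with RNA code as a random block, with array weights, with cyclic loess, after level adjustment without NCP array 2 and with a log2 fold change of at least 1 asked as well. The count was also 5 with quantile normalization again, 6 against embryo arrays of the same label series, 8 at an adjusted p under 0.01, 9 against embryo arrays of the other label series. The count was also 29 with arrays centred on the receptor genes. Lower genes of the replication and mitosis lists outside the rule, 37 as reported, numbered 0 against the embryo array of the same title date, 5 after level adjustment without NCP array 1, 6 after level adjustment, 9 after level adjustment without NCP array 2. The count was also 10 after level adjustment without NCP array 3, 13 with cyclic loess, 15 with arrays averaged per RNA code, 20 with a log2 fold change of at least 1 asked as well. The count was also 24 with array weights, with quantile normalization again and against embryo arrays of the same label series, 83 with arrays centred on the receptor genes. The median of replication genes minus that of mitosis genes, 0.14 as reported, was -0.0046 with cyclic loess, -0.051 with quantile normalization again, -0.11 among probe sets above the median of all by mean, and -0.012 after level adjustment (-0.13 without NCP array 1 and -0.053 without NCP array 3). Leaving out each array in turn gave 32 to 38 genes lower, 7 to 11 higher, 5 to 7 replication genes lower, 12 to 15 mitosis genes lower, 35 to 40 pathway genes outside the rule lower and a difference of medians of 0.09 to 0.23.

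With cyclic loess, the log2 fold change changed sign to -0.78 for *Ccna1*, 0.47 for *Ccna2*, 0.84 for *Ccnb2*, 0.68 for *Ccnd1*, 0.24 for *Ccnd2*, 0.72 for *Cdk1*, -0.84 for *Cdk3*, 0.13 for *Cdk8*, 0.24 for *Cenpa*, -0.096 for *Cenpi*, 0.77 for *Mcm6* and -0.24 for *Orc1*. After level adjustment, the log2 fold change changed sign to -0.66 for *Ccna1*, 0.41 for *Ccna2*, 0.85 for *Ccnb2*, 0.59 for *Ccnd1*, 0.34 for *Ccnd2*, 0.60 for *Cdk1*, -0.71 for *Cdk3*, 0.26 for *Cdk8*, 0.21 for *Cenpa*, -0.11 for *Cenpi*, 0.66 for *Mcm6* and -0.22 for *Orc1*. With quantile normalization again, the log2 fold change changed sign to 0.013 for *Ccnb2*, 0.12 for *Cdk1* and 0.13 for *Mcm6*. With arrays centred on the receptor genes, the log2 fold change changed sign to -1.68 for *Aurkc*, -1.21 for *Ccna1*, -1.17 for *Cdk18*, -1.59 for *Cdk3*, -0.84 for *Cenpi*, -0.97 for *Cenpq*, -1.42 for *E2f1*, -1.25 for *E2f2*, -1.34 for *Mcm8*, -1.59 for *Mcm9*, -1.02 for *Orc1*, -1.36 for *Orc6* and -0.96 for *Plk3*. With the lowest probe set per gene, the log2 fold change changed sign to 0.35 for *Cdk10*. After level adjustment without NCP array 1, the log2 fold change changed sign to 0.10 for *Aurka*, 0.50 for *Ccna2*, 1.30 for *Ccnb2*, 0.18 for *Ccnd1*, 0.53 for *Ccnd2*, 0.70 for *Cdk1*, -0.94 for *Cdk3*, 0.81 for *Cdk8*, 0.062 for *Cenpa*, -0.063 for *Cenpi* and 0.70 for *Mcm6*. After level adjustment without NCP array 2, the log2 fold change changed sign to -0.80 for *Ccna1*, 0.70 for *Ccna2*, 0.67 for *Ccnb2*, 0.67 for *Ccnd1*, 0.29 for *Ccnd2*, 0.61 for *Cdk1*, 0.47 for *Cdk8*, 0.19 for *Cenpa*, -0.13 for *Cenpi*, -0.22 for *Cenpq*, -0.62 for *E2f2*, 0.66 for *Mcm6*, -0.50 for *Orc1* and -0.062 for *Plk3*. After level adjustment without NCP array 3, the log2 fold change changed sign to -0.80 for *Ccna1*, 0.041 for *Ccna2*, 0.58 for *Ccnb2*, 0.91 for *Ccnd1*, 0.19 for *Ccnd2*, 0.50 for *Cdk1*, -0.78 for *Cdk3*, 0.38 for *Cenpa*, -0.14 for *Cenpi*, 0.60 for *Mcm6*, -0.30 for *Orc1*, 0.28 for *Orc3* and 0.071 for *Orc4*. The level-adjusted fits without single NCP arrays were chosen after the data had been seen. The causes of these changes were not tested. With 3 NCP arrays and values compressed towards the receptor genes on each of them, small differences of dim genes could not be shown.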

Other observations

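Within the control group, the 2 RNA codes of total embryo were separated in cell cycle genes about as often as in probe sets at large. In 3 of the 80 genes (*Cenph*, *Cdk3* and *Orc3*) all 3 arrays of the code that shares its label series with the NCPs lay above the 4 of the other, and in 6 (*Cdk4*, *Cenpx*, *Cenpb*, *Aurkb*, *Cdk5* and *Plk2*) below them, beside 6.14% and 5.49% of all probe sets. *Cdk4* read 8.46 to 9.15 on the 3 arrays of one RNA code and 9.43 to 9.88 on the 4 of the other, a difference of means of -0.80. *Cenph* read 7.08 to 7.67 on the 3 arrays of one RNA code and 6.41 to 6.83 on the 4 of the other, a difference of 0.80. Both differences were smaller in size than the log2 fold change of the same gene in NCPs, -2.67 and -0.90. The RNA codes also differ in label series and title date, which cannot be told apart from them.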
